A study of Homo sapiens with 16 samples.

Results

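Human cells hold 2 kinds of chaperonin, and the 10 genes described here encode both of them. The 8 subunit genes of the cytosolic TRiC complex (also called CCT) were TCP1, CCT2, CCT3, CCT4, CCT5, CCT6A, CCT7 and CCT8, and the 2 genes of the mitochondrial chaperonin were HSPD1 (HSP60) and HSPE1 (HSP10). The genes were chosen by symbol and not by a threshold on any measured value, but with earlier results of these data known. They are 10 of the 60620 gene identifiers that both annotation releases of the count tables share. All 10 were counted in all 16 libraries and passed the filter on low counts in every comparison.

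Chaperonins are double-ring chambers in which an unfolded protein is enclosed and folds at the cost of ATP. TRiC is built from different but related subunits, takes tubulin, actin and other cytosolic proteins, and receives part of them from the prefoldin complex. HSP60 with its lid HSP10 works in the mitochondrial matrix on proteins that have been imported and handed on by the mitochondrial HSP70 system. Myc, a transcription factor that binds E-box sequences, drives genes of protein synthesis and growth in many tumours, and TXNIP is an arrestin-related protein that limits glucose uptake.

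The cells were MDA-MB-231, an established human triple-negative breast cancer line. Parental 231 cells were unedited, and 231:TKO cells had lost TXNIP by CRISPR/Cas9 editing and descended from clones grown out of single cells, so differences between them also hold whatever set those clones apart. Untreated parental 231 and 231:TKO had 2 libraries each. The other 4 groups, parental 231+siNT, parental 231+siMyc, 231:TKO+siNT and 231:TKO+siMyc, had 3 libraries each after 48 hours with a nontargeting siRNA (siNT) or an siRNA against Myc (siMyc). The design addressed how TXNIP loss alters expression and which part of it depends on Myc.

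HSPD1 and HSPE1 stand head to head on chromosome 2 and share 1 stretch of DNA between their start sites. This stretch is shown because, among the searched windows of the 10 genes, only those of this pair held the canonical E-box CACGTG (in capitals), and because HSPD1 had the largest change after siMyc of the 10. In RefSeq annotation of GRCh38.p14 the start of HSPD1 on the minus strand is at chr2:197500274 and that of HSPE1 on the plus strand at chr2:197500379. Between them lies this stretch (chr2:197500275-197500378, plus strand):
HSPD1 and HSPE1 shared region: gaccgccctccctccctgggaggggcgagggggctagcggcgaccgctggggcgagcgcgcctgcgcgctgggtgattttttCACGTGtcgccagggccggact
The E-box at chr2:197500357-197500362 is 88 bases before the HSPD1 start and 22 bases before the HSPE1 start. Of 35116 windows of 250 bases before annotated starts, 6.34% held CACGTG on either strand.

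The related hexamer CACGCG, searched on both strands, was in 9.72% of these windows and, among the members, before CCT3, CCT8 and HSPD1. The CCT3 match is at chr1:156338484-156338489, 197 bases before its start, and the CCT8 match, which reads CGCGTG on the strand printed, is at chr21:29073849-29073854, 206 bases before its start. Both are shown on the minus strand, that of the genes, with the hexamer in capitals, to set them beside the E-box of the mitochondrial pair:
CCT3, chr1:156338472-156338501: acgttcgcgctgCACGCGgccgggagcggc
CCT8, chr21:29073837-29073866: ctgggctgtctgCGCGTGcgtgagccagaa
A heat shock element (the units GAA, TTC and GAA, each 2 bases from the next, searched on both strands) was in 0.441% of the windows and, among the members, before a second, downstream start of HSPD1 at chr2:197499840, where 2 matches on opposite strands overlap (capitals, minus strand):
HSPD1 downstream start, chr2:197500061-197500090: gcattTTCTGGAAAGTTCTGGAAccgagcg
Windows were found for 9 of the 10 genes, CCT6A being the exception. A match is a description of these letters and no measure of binding.

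TXNIP was measured first, as a check of the labels. It was at 290 and 291 CPM (counts divided by the library total and its TMM factor, on a common scale) in untreated parental 231 and at 12.6 and 46.6 CPM in untreated 231:TKO. The log2 difference of -3.29 did not pass the test at 4 libraries (adjusted p = 0.0587), while in the siRNA-treated cells TXNIP was lower in 231:TKO by log2 differences of -5.42 with siNT and -5.57 with siMyc (adjusted p = 2.74e-10 and 1.92e-12). MYC RNA was lower after siMyc by log2 differences of -1.21 in 231:TKO and -0.96 in parental 231. Of the markers that describe this mesenchymal, receptor-poor line, VIM lay between 1814 and 3088 CPM and CD44 between 566 and 1386 CPM, while ESR1 and PGR were at most 0.313 and 0.0799 CPM. CDH1 was at most 9.3 CPM and EPCAM at most 32.1 CPM, while ERBB2 lay between 74.3 and 107 CPM. Libraries held between 18953668 and 59799444 counts on genes. In the siRNA-treated parental 231 cells, siNT replicate 1 and siMyc replicate 3 stood apart from the other 4 libraries and deviated from their group means together (r = 0.899 over 13449 genes). The chi-square per gene was 85.5 to 99.1 between either of them and the other libraries of its group, against 2.49 to 10.3 between those others, so results that rest on them are given with and without them. The 2 untreated 231:TKO libraries also differed from each other (38.9, against 2.02 for untreated parental 231). Untreated cells, and 231:TKO cells given either siRNA, are described by the study as biological replicates, without saying whether cultures were separate, so p-values measure the spread between these libraries, which may be partly technical. In bulk RNA, fewer cells with a transcript and less of it per cell cannot be told apart.

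Per the headers of the count tables, single reads were counted in untreated cells and read pairs after siRNA, so levels are compared within each kind only. Divided by exonic length (CPM per kb), CCT4 was the highest of the 10 genes in untreated parental 231 at 180 ± 2.59 (SD, n = 2), followed by CCT6A at 134 ± 1.63 and CCT3 at 129 ± 1.29. CCT8 at 115 ± 0.902 and CCT7 at 113 ± 1.76 did not differ beyond their spread. CCT5 stood at 96.9 ± 0.189, TCP1 at 88.9 ± 0.931 and CCT2, the lowest TRiC gene, at 69.1 ± 0.335. HSPD1 at 45.8 ± 0.56 and HSPE1 at 23 ± 0.772 came below all 8 subunit genes. This order and those given next depend on the length used. It counts all annotated exons of a gene, at 7629 bases for HSPD1 and 4230 for CCT2. In CPM, HSPD1 (350) stood above CCT2 (292) alone in the same cells, and HSPE1 (41.9) was the lowest. In 231:TKO+siNT, CCT3 was the highest gene at 127 ± 1.6 CPM per kb (n = 3) and CCT2 the lowest at 56.1 ± 1.62, and HSPE1 at 103 ± 3.68 and CCT8 at 99.8 ± 4.38 did not differ beyond their spread. In parental 231+siNT, HSPD1 at 57 ± 3.16 and TCP1 at 55.4 ± 2.61 were the lowest and overlapped. HSPE1, the shortest of the genes at 1823 exonic bases, was at 42.9 and 40.9 CPM in untreated parental 231 and at 111 to 167 CPM in parental 231+siNT, 2 kinds of library in which read layout and treatment cannot be told apart.

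**Figure D1:**
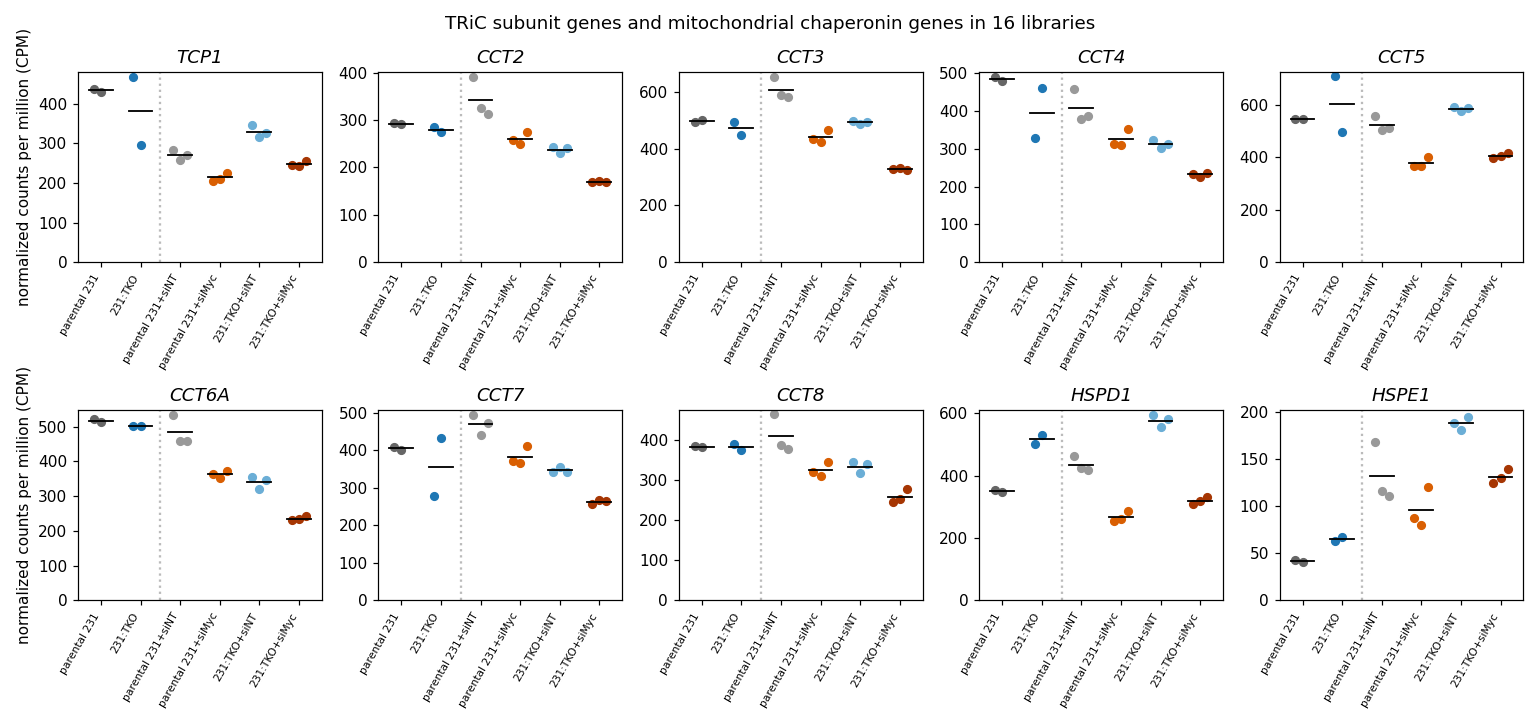
Normalized CPM (vertical axes, from 0) of the 10 genes in the 16 libraries, 1 panel per gene, with a point per library and a line at the group mean; the dotted line separates untreated libraries (single reads) from siRNA-treated ones (read pairs). In each of the 10 panels every 231:TKO+siMyc library lies below every 231:TKO+siNT library, and HSPD1 and HSPE1 are the 2 panels in which both untreated 231:TKO libraries lie above both of parental 231.

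After Myc knockdown all 10 chaperonin genes fell in 231:TKO cells. HSPD1 fell by 45.7% of its siNT level, the largest change of the 10. HSPE1 fell by 31.6%, and the TRiC subunit genes fell by between 24% (CCT8) and 34.6% (CCT3). The groups did not overlap for any of the 10 genes, and the share of all genes without overlap was not counted. Of all 22427 genes tested, 13.9% were called lower and 13.3% higher, with a median log2 fold change of 0.01, against a median of -0.53 over the 10 members.

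HSPD1, the chamber of the mitochondrial chaperonin, stood at 593, 554 and 580 CPM in 231:TKO+siNT and at 308, 317 and 331 CPM in 231:TKO+siMyc. Every siMyc library was far below every siNT library, and the log2 fold change was -0.88 ± 0.0474 (SE), with an adjusted p of 4.72e-11 from the quasi-likelihood test of edgeR, adjusted over all genes by the Benjamini-Hochberg method, which stands behind every adjusted p given here. HSPE1, its lid, went from 188, 181 and 194 CPM to 124, 130 and 139 CPM, a log2 fold change of -0.55 ± 0.0522 (adjusted p = 8.06e-08). The pair is divergently transcribed from the shared region printed above, and its members differed in the size of the change, with 95% confidence intervals of -0.98 to -0.78 for HSPD1 and -0.66 to -0.44 for HSPE1.

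Among the TRiC subunits, which all form part of the same ring, CCT3 changed most. It stood at 499, 486 and 492 CPM with siNT and at 329, 332 and 324 CPM with siMyc (log2 fold change -0.61 ± 0.0447, adjusted p = 2.55e-09). CCT5 went from 595, 577 and 591 CPM to 396, 407 and 417 CPM (log2 fold change -0.56, adjusted p = 8.15e-09), and CCT6A from 355, 320 and 345 CPM to 231, 233 and 243 CPM (-0.56, adjusted p = 3.66e-08). CCT2 followed with a log2 fold change of -0.51 and CCT4 with -0.46. The changes of TCP1 (-0.44), CCT7 (-0.43) and CCT8 (-0.40) were the smallest, and that of CCT8 had the largest adjusted p of the 10 (5.51e-06). The interval of CCT8 (-0.50 to -0.29) did not overlap that of CCT3 (-0.71 to -0.52), and none of the 8 subunit intervals overlapped that of HSPD1. Differences between genes were not tested.

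In parental 231 cells the same 10 genes were lower on average after siMyc, by log2 differences of -0.29 to -0.70, but only HSPD1 passed the test. Of all 23715 genes tested, 0.354% were called lower and 0.24% higher. HSPD1 stood at 462, 425 and 417 CPM with siNT and at 254, 261 and 285 CPM with siMyc, without overlap (log2 fold change -0.70 ± 0.0969, adjusted p = 0.0376). All 8 TRiC genes had non-overlapping groups and an unadjusted p under 0.05, with adjusted p between 0.0741 for CCT5 and 0.233 for CCT4. Of all 23715 genes, 3463 had an unadjusted p under 0.05, and the share without overlap was not counted. CCT3, for example, stood at 654, 588 and 582 CPM with siNT and at 434, 423 and 466 CPM with siMyc (log2 fold change -0.46 ± 0.0969, adjusted p = 0.0783). The higher siNT value and the higher siMyc value were those of the 2 libraries that stood apart.

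HSPE1 was the 1 member whose groups overlapped in parental 231. It was at 167, 116 and 111 CPM with siNT and at 86.7, 80.3 and 121 CPM with siMyc, and the first siNT and the third siMyc library, the 2 that stood apart, were the high ones in each group (log2 difference -0.46 ± 0.203, adjusted p = 0.351). Without these 2 libraries all 10 members were called lower, with log2 fold changes of -0.71 for HSPD1, -0.45 for HSPE1 and between -0.48 (CCT5) and -0.28 (CCT8) for TRiC, while 10.9% of 22433 genes were called lower. With all 6 libraries and a factor for that pair, all 10 were again called lower, as were 13.1% of genes. These settings were chosen after the libraries had been seen to stand apart.

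**Figure D2:**
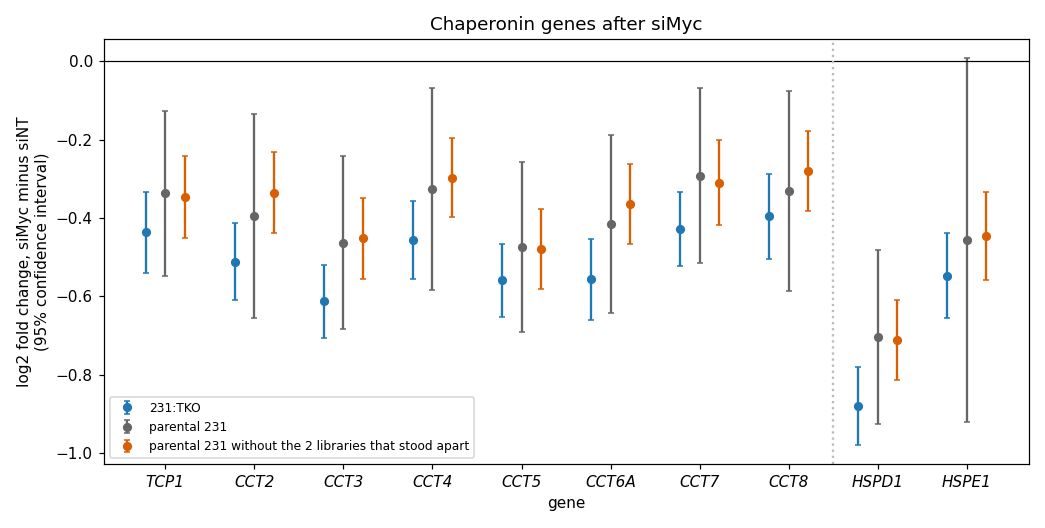
Log2 fold change after siMyc (siMyc minus siNT, vertical axis) for each of the 10 genes, with 95% confidence intervals, in 231:TKO (3 against 3 libraries), in parental 231 (3 against 3) and in parental 231 without the 2 libraries that stood apart (2 against 2). HSPD1 has the lowest value in each series, at -0.88, -0.70 and -0.71, and the parental 231 intervals narrow without the pair, that of HSPE1 from -0.92 to 0.01 to -0.56 to -0.33.

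The response to siMyc was then compared between the cell populations in 1 fit of the 12 siRNA libraries. The difference of the log2 fold changes, 231:TKO minus parental 231, lay between -0.15 for HSPD1 and -0.04 for CCT8, and 0 of the 10 members passed the test, with unadjusted p between 0.202 and 0.784. Over all 25812 genes tested, 0% were called by this test in edgeR (1039 had an unadjusted p under 0.05), and DESeq2 called none of the members. The 95% confidence interval was -0.38 to 0.09 for HSPD1 and -0.35 to 0.10 for CCT3, so with 3 libraries a group both held 0 and differences of either sign. Removing the pair that stood apart left the members uncalled, with differences of -0.23 to -0.11 and adjusted p of at least 0.285. CCT6A, CCT2, HSPD1, CCT3 and CCT4 had intervals below 0 there and unadjusted p of 0.00463 to 0.0136. The intervals of the other members held 0. Of all 25019 genes, 2202 had an unadjusted p under 0.05 in that fit, with 0.0999% called higher and 0.152% lower. With a factor for the pair instead, the interval of HSPD1 alone was below 0 (-0.28 to -0.01).

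The mitochondrial chaperonin was then set against TRiC within each library, which leaves out any scaling between libraries. In untreated parental 231 there were 9.85 and 9.78 HSPD1 counts per 100 counts of the 8 TRiC genes, and in untreated 231:TKO there were 14.5 and 16.2. With siNT the ratio was 19.4, 19.1 and 19.4 in 231:TKO and 12.1, 12.7 and 12.4 in parental 231. With siMyc it was 14.6, 14.9 and 15.1 in 231:TKO and 9.64, 10.1 and 10 in parental 231. Within each cell population the siMyc libraries were all below the siNT libraries, and within each treatment the 231:TKO libraries were all above the parental ones, the pair that stood apart included. The siNT libraries of parental 231 lay below the siMyc libraries of 231:TKO. No test was run on this ratio, since it combines members chosen as a list.

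**Figure D3:**
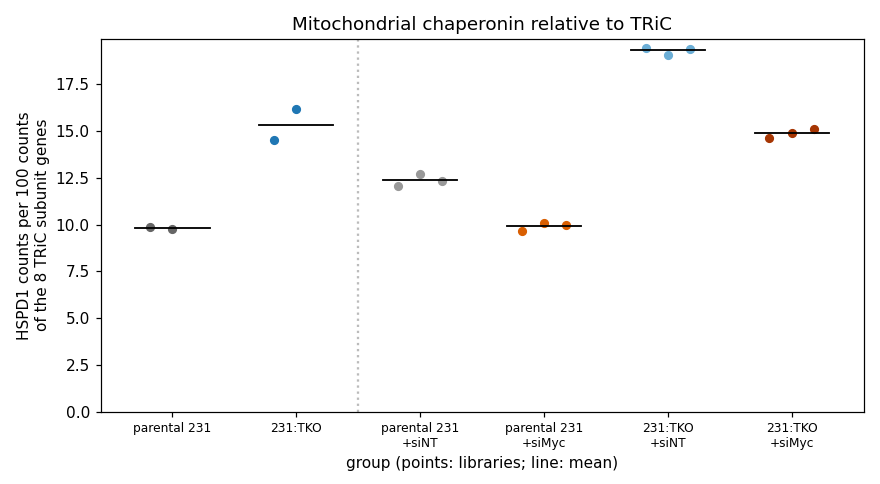
HSPD1 counts per 100 counts of the 8 TRiC subunit genes (vertical axis, from 0) in each library, by group, with a point per library and a line at the group mean. Within untreated cells, within siNT and within siMyc all 231:TKO points lie above all parental 231 points, and siMyc points lie below siNT points in both populations (14.6 to 15.1 against 19.1 to 19.4, and 9.64 to 10.1 against 12.1 to 12.7).

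HSPE1 relative to TRiC differed with genotype as HSPD1 did, at 1.82 and 2.03 counts per 100 TRiC counts in untreated 231:TKO and 1.2 and 1.15 in untreated parental 231. With siNT the range was 6.18 to 6.5 in 231:TKO and 3.29 to 4.37 in parental 231, and with siMyc 5.88 to 6.36 and 3.1 to 4.23. Between siNT and siMyc, unlike that of HSPD1, this ratio overlapped in both populations. With the larger change of HSPD1, there were 31.8 to 33.5 HSPE1 counts per 100 HSPD1 counts in 231:TKO+siNT and 40.2 to 42 in 231:TKO+siMyc. In parental 231 these values overlapped, at 26.6 to 36.2 with siNT and 30.7 to 42.3 with siMyc. Within TRiC, CCT3 took 16.7 to 17.1% of the summed CPM per kb in 231:TKO+siNT and 15 to 15.9% in 231:TKO+siMyc, while CCT8 took 12.9 to 13.4% and 13.7 to 14.8%. In parental 231 the CCT3 share was 16.9 to 17.5% with siNT and 16.1 to 16.3% with siMyc. That of CCT8 overlapped there (12.9 to 13.8% and 13.7 to 13.9%).

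In untreated cells HSPD1 and HSPE1 were higher in 231:TKO than in parental 231, and no TRiC gene was called. HSPD1 was at 501 and 531 CPM in 231:TKO and at 353 and 347 CPM in parental 231 (log2 fold change 0.56 ± 0.0621, adjusted p = 0.0122). HSPE1 was at 63 and 66.9 CPM in 231:TKO and at 42.9 and 40.9 CPM in parental 231 (log2 fold change 0.63 ± 0.075, adjusted p = 0.0138). The groups did not overlap for either gene, nor for CCT2, CCT4 and CCT6A, which were not called. The share of all genes without overlap was not counted, so with 2 libraries a group this separation is a description only. Of 19951 genes tested, 5.44% were called higher and 4.18% lower. The 8 TRiC genes had log2 differences between -0.30 (CCT4) and 0.15 (CCT5), with adjusted p of at least 0.361, and 0 of them had an unadjusted p under 0.05 in edgeR or were called by DESeq2. Without parental 231 replicate 1 or without replicate 2, 0 members and 0% of all genes were called by edgeR (2170 and 2141 genes had an unadjusted p under 0.05), and the log2 fold changes were 0.57 and 0.55 for HSPD1 and 0.67 and 0.60 for HSPE1.

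Genes near HSPD1 and HSPE1 differed in the same direction. The 49 genes measured in the 20-Mb window that holds the pair (chromosome 2, 180 to 200 Mb) had a median log2 fold change of 0.42, and 71.4% of them lay below HSPD1 and 83.7% below HSPE1. When each gene's window median was taken out of the comparison through an offset, HSPD1 was at 0.11 (adjusted p = 0.306) and HSPE1 at 0.18 (adjusted p = 0.176), and 0 members were called. With this offset 4.34% of all genes were called higher and 4.86% lower. What sets the level of this window was not tested.

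The 2 untreated 231:TKO libraries differed from each other in 4 TRiC genes, and the genes around them differed likewise. TCP1 was at 468 CPM in replicate 1 and 297 CPM in replicate 2, against 437 and 431 CPM in parental 231, which put its log2 ratio to the parental mean at 0.11 and -0.55 where its window (chromosome 6, 140 to 160 Mb, 65 genes) had medians of 0.09 and -0.50. CCT4 was at 328 and 460 CPM and CCT7 at 278 and 432 CPM. These 2 genes share the window of chromosome 2 from 60 to 80 Mb, and their log2 ratios of -0.57 and -0.54 in replicate 1 stood beside a window median of -0.51. In replicate 2 the ratios were -0.08 and 0.09 and the median -0.01. CCT5 was at 710 and 499 CPM, with ratios of 0.38 and -0.13 and medians of 0.30 and -0.04 in its window (chromosome 5, 0 to 20 Mb, 47 genes). CCT2, CCT3, CCT6A and CCT8 had log2 ratios between -0.15 and 0.03 in both replicates. The differences within the group widened the intervals, that of TCP1 reaching from -0.78 to 0.41, and leaving out 231:TKO replicate 1 gave 3 members called higher and 5 lower (18.4% and 19% of all genes), leaving out replicate 2 gave 4 and 2 (18.5% and 17.6%). Each of these fits leaves 1 library in an arm, which is assumed to vary like the other group.

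**Figure D4:**
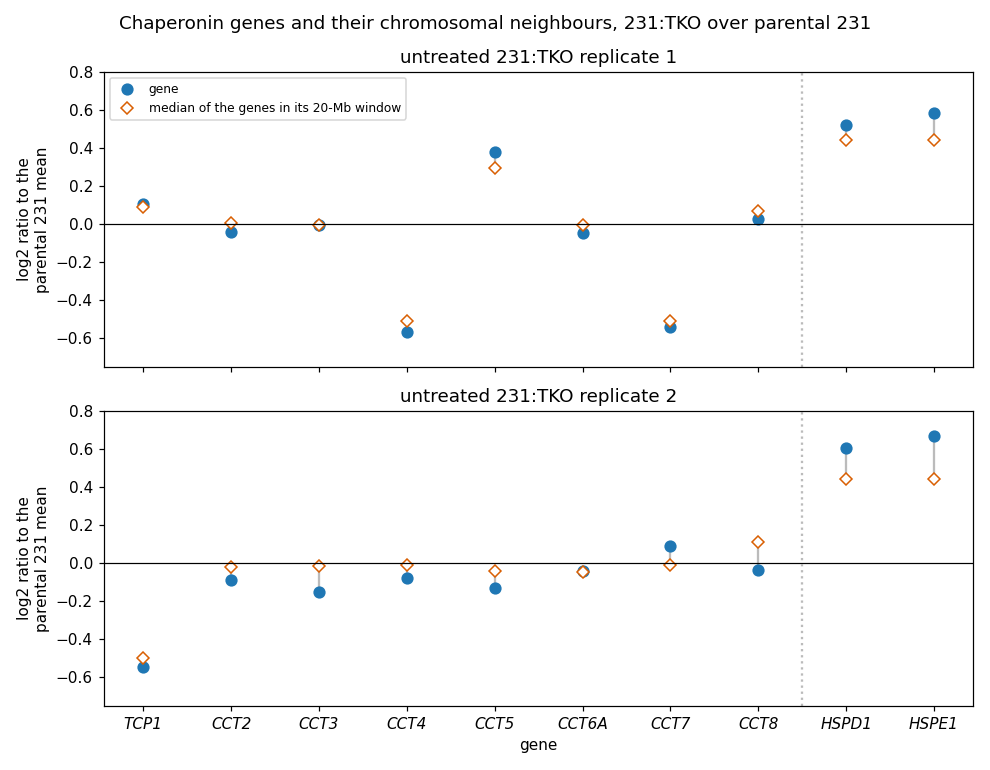
Log2 ratio to the parental 231 mean (vertical axis) of each of the 10 genes (filled circles) and the median of the genes in its 20-Mb window (open diamonds), in untreated 231:TKO replicate 1 (top) and replicate 2 (bottom). CCT4 and CCT7 in replicate 1 and TCP1 in replicate 2 lie near -0.55 with their windows near -0.50, and HSPD1 and HSPE1 lie above a window median of 0.44 in both.

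With siRNA the populations were compared once with siNT and once with siMyc, on the libraries that also gave the siMyc changes above. The 231:TKO libraries were counted on an earlier Ensembl release than the parental 231 ones. The exons of the 10 genes are the same in both releases, and the set of libraries and the genotype cannot be told apart. With siNT, 6 TRiC genes were lower in 231:TKO (CCT2, CCT3, CCT4, CCT6A, CCT7 and CCT8, log2 fold changes of -0.52 to -0.29), while TCP1, HSPD1 and HSPE1 were higher (0.29, 0.41 and 0.52). Of 23310 genes tested, 20.7% were called lower and 16.1% higher. With siMyc the same 6 genes were called lower (-0.64 to -0.35) and HSPD1 and HSPE1 higher (0.24 and 0.44), where 21.7% of 23561 genes were called lower and 18.8% higher. TCP1 was at a log2 difference of 0.20 there (adjusted p = 0.0812) and CCT5 was called in neither (0.16 and 0.09). Without the 2 libraries that stood apart, the same 6 genes were called lower and these 4 higher in both comparisons, TCP1 at 0.34 and 0.23, CCT5 at 0.23 and 0.13, HSPD1 at 0.48 and 0.29, and HSPE1 at 0.75 and 0.63. Of all genes, 25.8% were then called lower and 22.4% higher with siNT, and 26.6% lower and 23.1% higher with siMyc.

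Of the 6 genes that were lower, CCT6A and CCT2 had the largest differences. CCT6A was at 355, 320 and 345 CPM in 231:TKO+siNT and at 533, 460 and 459 CPM in parental 231+siNT (log2 fold change -0.50 ± 0.0941, adjusted p = 0.00153). CCT2 was at 242, 230 and 240 CPM in 231:TKO+siNT and at 390, 325 and 312 CPM in parental 231+siNT (-0.52 ± 0.101, adjusted p = 0.00184). No library of 1 population reached the other for either gene, and the share of all genes without overlap was not counted. In untreated cells both had been near equal, CCT6A at 501 and 503 CPM in 231:TKO and 521 and 513 CPM in parental 231. The genotype difference in untreated cells minus that with siNT, tested in 1 fit of all 16 libraries, was 0.51 ± 0.127 for CCT6A (adjusted p = 0.008) and 0.50 ± 0.136 for CCT2 (adjusted p = 0.0133), and these were the 2 members called, where 15.3% of 27033 genes were called in either direction. That test spans both read layouts and both annotation releases.

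Window medians were also taken in the siRNA comparisons. With siNT the window of HSPD1 and HSPE1 had a median log2 fold change of 0.34 over 53 genes, and with window offsets HSPD1 was at 0.05 (adjusted p = 0.697) and HSPE1 at 0.16 (adjusted p = 0.476). The TCP1 window had a median of 0.57 over 70 genes, above the 0.29 of TCP1 itself, and with the offset TCP1 was lower in 231:TKO (-0.32, adjusted p = 0.0156). CCT2 (-0.44, adjusted p = 0.0132, window median -0.10), CCT7 (-0.28, adjusted p = 0.0298) and CCT8 (-0.33, adjusted p = 0.0359) were lower with the offset as well. CCT6A was not called with it (-0.21, adjusted p = 0.0887, window median -0.25), nor were CCT3 (-0.20, adjusted p = 0.0801) and CCT4 (-0.22, adjusted p = 0.109). Of all genes, 17.8% were called lower and 16.2% higher with these offsets. For the siMyc contrasts within a population such offsets were not used.

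Other chaperones and partners were counted from lists of known pathway genes, and their counts after siMyc in 231:TKO stand against 13.9% of all genes called lower and 13.3% higher. Of the 6 prefoldin genes, which deliver clients to TRiC, 3 were called lower after siMyc in 231:TKO (PFDN2 -0.51, VBP1 -0.30 and PFDN4 -0.28 on the log2 scale) and 0 higher, with a list median of -0.17. The phosducin-like co-chaperones PDCL3 (-0.40) and PDCL (-0.20) were called lower among 3 measured, and BBS12 (0.32), of the chaperonin-like proteins, was called higher among 4. Of 5 tubulin cofactors, which assemble tubulin after it leaves TRiC, TBCA alone was called lower (-0.24). Among 13 tubulin and actin genes, the clients themselves, 3 were called lower and 2 higher, with TUBA1C at -0.40 (647 against 839 CPM) and TUBA1B at -0.27 lower and TUBA1A at 0.36 higher. The shares of the client and cofactor lists called lower lay near that of all genes, and the median of the client list was -0.03.

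The mitochondrial HSP70 and protease list had 10 of 15 genes called lower and 0 higher after siMyc in 231:TKO, with a median of -0.27. TRAP1, the mitochondrial HSP90, changed more than HSPD1, from 76 to 39.5 CPM (log2 fold change -0.97 ± 0.0547, adjusted p = 7.4e-11). HSPA9, the mitochondrial HSP70, and its exchange factor GRPEL1 were lower by log2 fold changes of -0.38 and -0.46. Of 20 genes of the cytosolic HSP70 and HSP90 system, 13 were called lower and 2 higher, led by the HSP90 partners FKBP4 (-0.61) and AHSA1 (-0.47) and by HSP90AB1 (-0.49, from 1781 to 1294 CPM). Of 12 chaperones of the endoplasmic reticulum, 4 were called lower, among them DNAJB11 (-0.26), PDIA4 (-0.22) and HYOU1 (-0.22), and the list median was -0.09. The 8 TRiC genes had a median of -0.48.

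In parental 231 TRAP1 was the 1 gene of these lists to pass the test after siMyc (72.1 against 41.7 CPM, log2 fold change -0.79 ± 0.0962, adjusted p = 0.0376). Without the 2 libraries that stood apart, 6 of 15 genes of the mitochondrial list were called lower and 0 higher. Of the cytosolic list 6 of 20 were called lower and 1 higher, and of 6 prefoldin genes 2 lower and 1 higher. In the endoplasmic reticulum list 0 of 12 were called lower and 2 higher, and in the client list 3 of 13 lower and 3 higher. The co-chaperone, chaperonin-like and tubulin cofactor lists had 0 called in either direction. This stands against 10.9% of all genes called lower and 9.95% higher. The list medians were then -0.11 for the mitochondrial and -0.05 for the cytosolic list, against -0.34 for TRiC.

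Across the 12 siRNA libraries the 10 genes fell into patterns that differed by gene. The log2 CPM of CCT2, CCT4, CCT6A and CCT7 correlated with each other at Pearson r of 0.978 to 0.995, and HSPD1 with CCT5 at 0.987 and with TCP1 at 0.974. HSPD1 correlated with CCT7 at 0.225 and with CCT2 at 0.267. The points share their 4 groups, so these values describe the group levels given above: TCP1, CCT5, HSPD1 and HSPE1 had higher means in 231:TKO than in parental 231 with siNT (that of CCT5 not called), and the other 6 genes had lower ones.

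Over these 12 libraries 9710 genes, the members included, had at least 10 CPM on average. The non-members most like the mean log2 CPM of the 8 TRiC genes were MRPL3 (r = 0.994), RABEPK, DCAF13, RPL4 and PA2G4 (r = 0.99). MRPL3 encodes a protein of the mitochondrial ribosome and RPL4 one of the cytosolic ribosome. Those most like HSPD1 were STEAP1 (r = 0.995), DKC1, NPTN, SINHCAF and DAZAP1 (r = 0.984), of which DKC1 encodes the pseudouridine synthase dyskerin. No test was run on these likenesses.

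Reads of close copies and overlapping genes can affect such counts. Annotated pseudogenes of the 10 genes held at most 1.73% as many counts as the gene itself, the largest share being that of the 4 CCT6A copies. HSPD1 and HSPE1 overlap on opposite strands from chr2:197500140 to chr2:197503449, and counting used the strand. The readthrough gene HSPE1-MOB4 on the strand of HSPE1 held 0 to 15 counts per library. The end of TCP1 overlaps ACAT2 on the opposite strand, which held 2529 to 9174 counts.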

How the data were processed

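RNA-seq counts per gene were analysed for 16 libraries of MDA-MB-231 cells. Reads had been aligned by the authors with STAR (GRCh38), then assigned to genes with featureCounts (version 1.6.3 per the file headers) on the reverse strand, by the largest overlap and without multi-mapping reads, and deposited these raw counts per gene. Genes were matched between releases by Ensembl identifier and to symbols through the gene table supplied with the data (58658 identifiers with a symbol).

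Genes whose counts summed to more than 5 in a fit were tested in edgeR 4.0.16 (R 4.3.3) with TMM factors, glmQLFit (robust) and glmQLFTest, and Benjamini-Hochberg adjusted p of at most 0.05 was called. Each fit held the groups compared, without covariates, and the fits were checked on simulated data. DESeq2 1.42.0, other filters, DESeq2 size factors, a minimum log2 fold change of 0.5, a replicate block, 1 fit of the siRNA libraries, 20-Mb window offsets (windows of at least 15 genes with at least 1 CPM) and leaving out each library were alternatives. CPM used TMM factors computed separately over untreated and over siRNA-treated libraries. Confidence intervals are at 95%. Promoter windows of 250 bases before a start came from RefSeq on GRCh38.p14. The members and lists were chosen with earlier results of these data known. The text names all 10 members, TXNIP and MYC, up to 3 genes per list with the smallest adjusted p in each siMyc comparison (at least 1 CPM), and the 5 genes (at least 10 CPM) most like TRiC or HSPD1.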

Additional observations from a re-analysis of the deposited data

Results flagged for a closer look

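The genotype difference of 2 TRiC subunit genes differed between untreated and siNT-treated cells by a test of that difference in edgeR. That is 2 of the 10 members, where 15.3% of all 27033 genes tested were called in either direction. For CCT6A, untreated minus siNT was 0.51 on the log2 scale (adjusted p = 0.008), with 231:TKO minus parental 231 at -0.04 in untreated cells and -0.50 with siNT. Under the alternatives the CCT6A value lay between 0.24 and 0.54, and it was not called with window offsets (0.24, adjusted p = 0.211), without parental 231 replicate 1 (adjusted p = 0.051) or without parental 231 replicate 2 (adjusted p = 0.0684). For CCT2 the value was 0.50 (adjusted p = 0.0133), from -0.06 in untreated cells and -0.52 with siNT. Under the alternatives it lay between 0.37 and 0.57, and it was not called without parental 231 replicate 1 (adjusted p = 0.0769) or replicate 2 (adjusted p = 0.0881). Read layout differed between untreated and siRNA-treated libraries and the annotation release differed between the siRNA-treated populations. Their part in these values was not tested.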

How the results depend on the processing

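With 2 or 3 libraries a group, a difference that missed the threshold is not shown to be absent. For siMyc in 231:TKO all 10 members were called lower under the alternatives run, leave-one-out fits included (10 in each), except that 6 reached the minimum log2 fold change of 0.5 and 9 were called in 1 fit of the 12 siRNA libraries, where HSPE1 had an adjusted p of 0.0584. Of all genes, 3.63% were called lower with that minimum, 4.38% in that fit and 10.8% to 20.1% under the other alternatives. For siMyc in parental 231 the 1 member called lower became 5 with DESeq2 (2.71% of all genes called lower), 2 with no filter on low counts (0.672%), 9 in 1 fit of the 12 siRNA libraries (3.65%), 10 without the 2 libraries that stood apart (10.9%) and 10 with a factor for them (13.1%), and 0 to 1 when any 1 library was left out (0% to 0.436%, with 0 genes in 4 of 6 such fits).

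Replicate numbers were shared between groups, and deviations of same-numbered libraries correlated with either sign (-0.153 to 0.274 for siMyc in 231:TKO and -0.813 to 0.636 in parental 231). In parental 231 the replicate 2 libraries did deviate together (0.636), as did siMyc replicate 1 with siNT replicate 2 (0.636). So did siMyc replicates 1 and 2 with siNT replicate 3 (0.676 and 0.679). Deviations were taken from group means that held the library that stood apart, which ties the others together. These values therefore cannot show which libraries were paired. With a replicate block, 0 members and 0 of all 23715 genes were called by edgeR for siMyc in parental 231 (1993 had an unadjusted p under 0.05), and 1 member was called higher in 231:TKO with siMyc (16.4% of all genes). The block left the other counts of members called within 1.5 times of those reported.

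With 20-Mb window offsets 0 members were called higher in 231:TKO in untreated cells, with siNT (3 before) and with siMyc (2 before). Of all genes, 4.34%, 16.2% and 19.2% were called higher with these offsets. These offsets also turned signs, in untreated cells of TCP1 (to 0.011), CCT5 (to -0.0014) and CCT7 (to 0.039), with siNT of TCP1 (to -0.32) and CCT5 (to -0.037), and with siMyc of TCP1 (to -0.35), CCT5 (to -0.093) and HSPD1 (to -0.11). No filter on low counts put CCT8 at 0.0055 in untreated cells. With the minimum log2 fold change of 0.5, 1 member was called higher and 2 lower with siNT (12% and 14.8% of all genes), and 0 higher with siMyc (14.3%). With siMyc, 1 was called higher with no filter on low counts (14.6% of all genes) and 4 without the 2 libraries that stood apart (23.1%). A factor for these libraries gave 4 members called in the comparison of untreated with siNT differences. In that fit 14.3% of all genes were called higher and 8.57% lower.

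Leaving out 1 library gave 1 to 4 members called higher and 3 to 6 lower with siNT. Of all genes, 12% to 22.4% were called higher and 15.4% to 25.8% lower in these fits. With siMyc, leaving out 1 library gave 0 to 4 members higher and 5 to 6 lower (14.4% to 23.1% and 17.3% to 26.6% of all genes). In untreated cells it moved TCP1 between -0.56 and 0.11, CCT5 between -0.14 and 0.38, CCT7 between -0.54 and 0.077 and CCT8 between -0.051 and 0.026. In the siMyc response of 231:TKO minus parental 231, which no alternative called for any member, it moved CCT8 between -0.19 and 0.0016 and HSPE1 between -0.33 and 0.081. The causes of these changes were not tested.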
